A study of Mus musculus with 47 samples.

Results

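At 2 h after lights on (ZT02), the dip in nucleosome signal at binding sites of the clock factor CLK:BMAL1 was compared between livers of Bmal1-/- and wild-type mice. The comparison used every library of the series with that time in its label, 8 of 47: Bmal1-/- mice 5, 8, 9 and 10, and wild-type mice 11, 12, 26 and 27, numbered as the labels number them. All were adult C57BL/6 mice aged 3 to 6 months, kept in 12 h light and 12 h dark for 2 weeks or longer, with no other treatment named. Both genotypes went through the same steps: formaldehyde fixation of the liver, isolation of nuclei, digestion with micrococcal nuclease (MNase) and sequencing of DNA of about 150 nt. The sources used here do not say how the Bmal1 allele was made. The deposited signal is averaged over sets of sites, so neither Bmal1 itself nor liver marker genes could be checked against the labels.

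BMAL1 pairs with CLK (CLOCK) to form the activator at the head of the circadian feedback loop, which binds E-box sequences and drives its own repressors, the Per and Cry genes, and many rhythmic genes of liver metabolism. Its binding in mouse liver is known to be strongest in the light part of the day. DNA wrapped on a nucleosome is protected from MNase while the linker between nucleosomes is cut, so the sequenced fragments mark where nucleosomes lie, and sites bound by transcription factors commonly show a trough. The comparison asks how that trough differs in livers without BMAL1.

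The sites were CLK:BMAL1 ChIP-seq peaks, of which the deposited list holds 3217 with mm9 positions and 1 genomic class each: 583 at transcription start sites (TSS, 18.1%), 1412 in introns (43.9%), 6.56% in other parts of gene bodies, 9.14% between genes but within 10 kb of one, and 717 farther than 10 kb from any gene (22.3%). The highest-listed peak lay at a TSS on chromosome 7 (52960041 to 52960760), and the highest-listed intron peak was rank 5, on the same chromosome (52962811 to 52963430). The highest-listed peak within 10 kb of a gene was rank 2, on chromosome 11 (68908211 to 68908501). Beyond 10 kb it was rank 14, on chromosome 6 (94949091 to 94949570), and in a gene body outside introns rank 20, on chromosome 19 (23210011 to 23210590). The median peak width was 309 bp. For each library the authors deposited a profile of 300 positions over 3000 bp for each of 27 peak sets, and a 28th set, gene body peaks outside introns, was derived here by subtracting intron peaks from all gene body peaks. The 10 deposited decile sets are each named for 322 peaks, a little more in all than the list holds, and the all-peak set is named for 3216 peaks. What ranks the peaks of the deciles and of the sets named as top is not known here. The central signal of a mouse is its average within 150 bp of the middle, in percent of the flank, the mean beyond 1000 bp on both sides, and differences are given in percentage points as Bmal1-/- minus wild type.

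Depth overlapped between the genotypes. Relative to the shallowest library of the series it was 1.54 ± 0.384 in wild-type and 1.38 ± 0.322 in Bmal1-/- libraries (SD, n = 4 per genotype, exact two-sided permutation p = 0.571), and an all-peak position near the middle was covered by 25787 to 43923 fragments. The counting error was thus 0.477% to 0.623%, without any PCR duplication among the fragments. Within each genotype 1 mouse was at an end of both depth and all-peak central signal. Bmal1-/- mouse 8 was the deepest of its genotype (1.83) and the lowest in signal, and wild-type mouse 11 the shallowest (1.07) and the highest. The other ends did not match. The shallowest Bmal1-/- mouse, 5 (1.07), was not the highest in signal, and the deepest wild-type mouse, 27 (1.94), was not the lowest. Apart from mice 5 and 27, signal fell as depth rose within each genotype. Wild-type mice 11, 12 and 26 had depths of 1.07, 1.42 and 1.75 and signals of 73.1%, 70.1% and 68.5%. Bmal1-/- mice 9, 10 and 8 had depths of 1.24, 1.39 and 1.83 and signals of 86.3%, 82.7% and 74.1%. The part of depth in the values of these mice was not tested.

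Over all peaks the trough was shallower in Bmal1-/- livers. Central signal was 73.1%, 70.1%, 68.5% and 69.4% of the flank in wild-type mice 11, 12, 26 and 27. In Bmal1-/- mice 5, 8, 9 and 10 it was 79.8%, 74.1%, 86.3% and 82.7%. Every Bmal1-/- mouse lay above every wild-type mouse, but mouse 8 by only 0.997 points over wild-type mouse 11. The means were 70.3% ± 2.01 and 80.7% ± 5.13 (SD, n = 4 per genotype), a difference of 10.5 points (exact permutation p = 0.0286, adjusted p = 0.0444 over 28 sets by Benjamini-Hochberg). The 70 assignments of 8 mice allow no smaller p, so p does not rank the results that reach it. The call was lost, with exact p = 0.0571, when the centre was taken within 250 bp (8.63 points). The same p came with the flank on the left side only (10.3 points, a choice made after the data were seen). It also came without wild-type mouse 11, 12, 26 or 27 (9.87 to 11.4 points, 3 against 4 mice). The genotypes still did not overlap then, and with 3 against 4 mice such groups can have an exact p of 0.0571. Such a loss, here and below, thus does not show dependence on the mouse left out.

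**Figure D1:**
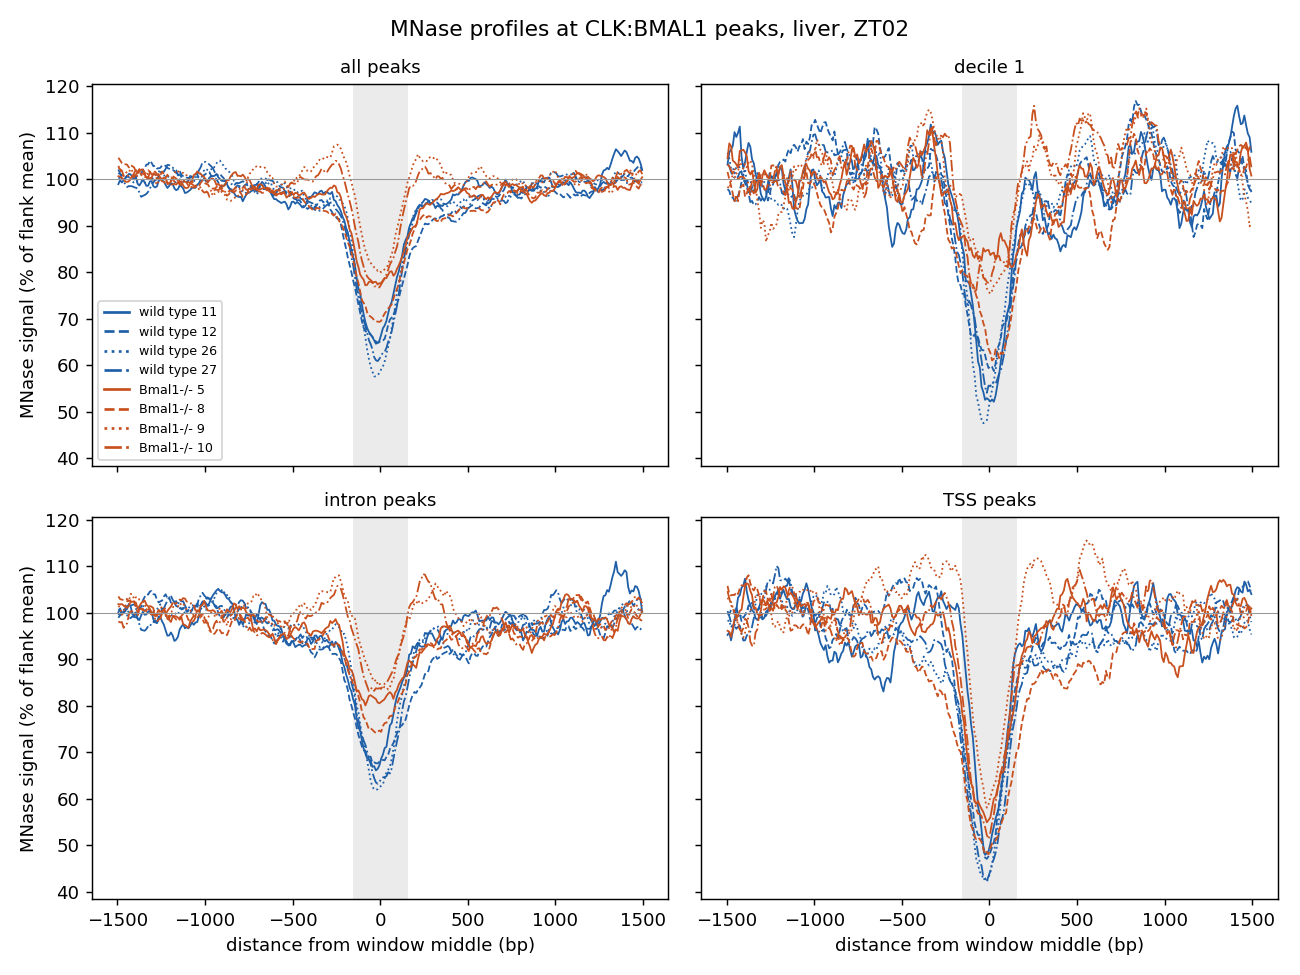
MNase signal in percent of the flank mean (y axis) against distance from the window middle in bp (x axis), 1 line per mouse at ZT02, with the central 300 bp shaded. In the all-peak panel the wild-type lines bottom out between 57.6% and 64.8% and the Bmal1-/- lines between 69.3% and 80%.

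The direction was shared by the peak sets. Central signal was higher in Bmal1-/- in 28 of 28 sets, by 2.96 to 16.4 points (median 12.7). In 18 of the 28 sets (64.3%) the genotypes did not overlap and the exact permutation p was 0.0286, with the same 18 at adjusted p = 0.0444. These sets share peaks and mice, so they are not independent, and the adjusted p is fixed by how many of them reach the smallest possible p. The order of the mice was also shared: Bmal1-/- mouse 8 was the lowest of its genotype in 27 of 28 sets and mouse 9 the highest in 23, while wild-type mouse 26 was the lowest in 16 and mouse 11 the highest in 16. The count of sets past the test was 3, 3, 2 and 2 without wild-type mice 11, 12, 26 and 27, and 24 without Bmal1-/- mouse 8. As over all peaks, sets whose genotypes stay apart can lose the call when a mouse is left out. The low counts thus do not show dependence on single wild-type mice.

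**Figure D2:**
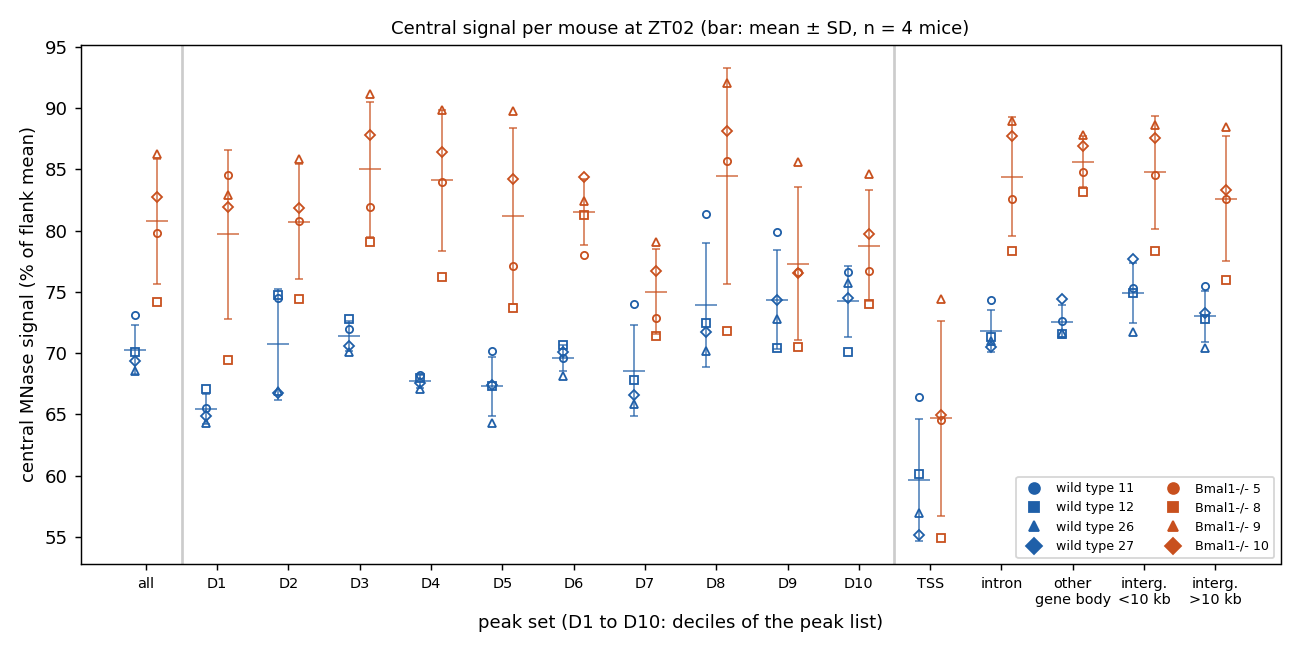
Central MNase signal in percent of the flank mean (y axis) for each mouse at ZT02 in all peaks, the 10 deciles of the peak list and the 5 genomic classes (x axis), with bars for the mean ± SD of 4 mice. The genotypes stand apart in deciles 1 and 3 to 6 and in 4 of the 5 classes, and they overlap in the last 4 deciles and at TSS peaks.

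The first decile of the list had the deepest wild-type trough among the deciles. Its central signal was 65.5%, 67.03%, 64.3% and 64.9% in wild-type mice 11, 12, 26 and 27, and 84.5%, 69.5%, 82.9% and 81.9% in Bmal1-/- mice 5, 8, 9 and 10. Bmal1-/- mice 5, 9 and 10 thus lay close together, and mouse 8 between them and wild type. The means were 65.4% ± 1.19 and 79.7% ± 6.90 (SD, n = 4 per genotype), a difference of 14.3 points (exact permutation p = 0.0286, adjusted p = 0.0444). It narrowed to 9.68 points with the centre within 250 bp (exact permutation p = 0.0857). Without wild-type mouse 11, 12, 26 or 27 it was 13.9 to 14.8 points with exact p = 0.0571.

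The set of the top 400 peaks, which is larger than the first decile, gave a difference of 14.1 points (exact permutation p = 0.0286). The other 2816 peaks, by subtraction, had 70.98% ± 2.17 in wild-type and 80.9% ± 5.07 in Bmal1-/- mice (SD, n = 4 per genotype), a difference of 9.94 points (exact permutation p = 0.0286). The top peaks exceeded the rest by 4.13 points in this difference, which did not pass (exact permutation p = 0.171), and by 2.02 points without Bmal1-/- mouse 5 (exact permutation p = 0.343). The same contrast was 2.45 points among intron peaks (top 400 against 1012 others, exact permutation p = 0.0571, adjusted p = 0.214 over 5 such contrasts).

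Further down the list the genotype difference was 10.0 points in decile 2 (exact permutation p = 0.0857), where wild-type mice 11 and 12 stood at 74.5% and 74.8% and Bmal1-/- mouse 8 at 74.5%. It was 13.6, 16.4, 13.9 and 11.9 points in deciles 3, 4, 5 and 6, each with exact permutation p = 0.0286 and adjusted p = 0.0444. Decile 4 had the most uniform wild-type mice, 67.7% ± 0.507 (SD, n = 4), against 84.1% ± 5.76 in Bmal1-/- (SD, n = 4). In the remaining deciles the groups overlapped: the difference was 6.44 and 10.5 points in deciles 7 and 8 (both with exact permutation p = 0.0857), 2.96 in decile 9 (p = 0.486) and 4.52 in decile 10 (p = 0.171).

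In the last decile wild-type mice 11, 12, 26 and 27 had 76.6%, 70.1%, 75.75% and 74.5%, and Bmal1-/- mice 5, 8, 9 and 10 had 76.7%, 74.02%, 84.6% and 79.7%. Bmal1-/- mouse 8 was below 3 of the wild-type mice there. Without this mouse the difference was 6.10 points (exact permutation p = 0.0286), and without Bmal1-/- mouse 9 it was 2.58 (exact permutation p = 0.371). In decile 9 it was 0.189 without mouse 9, 1.64 without wild-type mouse 12, 4.80 without wild-type mouse 11 and 5.22 without Bmal1-/- mouse 8, none of which passed (exact permutation p = 0.914, 0.8, 0.286 and 0.2).

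A slope of central signal over the 10 deciles was taken per mouse. In wild type it was 1.22, -0.00956, 0.881 and 0.878 points per decile in mice 11, 12, 26 and 27. In Bmal1-/- mice 5, 8, 9 and 10 it was -0.687, -0.181, -0.129 and -0.512. So the fitted slope was positive in 3 wild-type mice and negative in all 4 Bmal1-/- mice. The change was not steady. Bmal1-/- mice 8 and 9 had higher signal in decile 10 (74.02% and 84.6%) than in decile 1 (69.5% and 82.9%). Mice 5 and 10 had lower signal in decile 10 (76.7% and 79.7%) than in decile 1 (84.5% and 81.9%). The genotype difference in slope was -1.12 points per decile (exact permutation p = 0.0286). The call was lost with the centre within 250 bp (-0.772, exact p = 0.0857) and without Bmal1-/- mouse 5, 8, 9 or 10 (-1.20 to -1.01, exact p = 0.0571).

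By genomic class, intron peaks had 74.3%, 71.3%, 71.02% and 70.5% central signal in wild-type mice 11, 12, 26 and 27 and 82.6%, 78.3%, 88.95% and 87.7% in Bmal1-/- mice 5, 8, 9 and 10. The lowest Bmal1-/- mouse, 8, was above the highest wild-type mouse, 11. The difference of means was 12.6 points (71.8% ± 1.71 against 84.4% ± 4.88, SD, n = 4 per genotype, exact permutation p = 0.0286, adjusted p = 0.0444).

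Gene body peaks outside introns had 72.7%, 71.5%, 71.7% and 74.4% in wild-type mice 11, 12, 26 and 27, and 84.7%, 83.2%, 87.8% and 86.9% in Bmal1-/- mice 5, 8, 9 and 10. Here mouse 8 lay close to the others of its genotype. The difference was 13.1 points (72.6% ± 1.32 against 85.6% ± 2.08, SD, n = 4 per genotype, exact permutation p = 0.0286, adjusted p = 0.0444), and this class and decile 6 alone among the 18 sets kept exact p = 0.0286 with each mouse left out in turn.

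Intergenic peaks within 10 kb of a gene had 75.3%, 74.9%, 71.7% and 77.7% in wild-type mice 11, 12, 26 and 27, and 84.5%, 78.4%, 88.6% and 87.5% in Bmal1-/- mice 5, 8, 9 and 10. The genotypes were apart by less than 1 point, between wild-type mouse 27 and Bmal1-/- mouse 8. The difference of means was 9.83 points (exact permutation p = 0.0286, adjusted p = 0.0444).

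Intergenic peaks beyond 10 kb had 75.5%, 72.8%, 70.4% and 73.3% in wild-type mice 11, 12, 26 and 27, and 82.6%, 76%, 88.4% and 83.3% in Bmal1-/- mice 5, 8, 9 and 10. The nearest pair was Bmal1-/- mouse 8 and wild-type mouse 11. The difference of means was 9.59 points (exact permutation p = 0.0286, adjusted p = 0.0444). With the flank on the left side only, both intergenic classes gave exact p = 0.0571 (9.32 points within and 9.88 beyond 10 kb). Without any 1 wild-type mouse, intron peaks and both intergenic classes also gave exact p = 0.0571 (12.2 to 13.4, 8.78 to 10.8 and 8.73 to 10.4 points).

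TSS peaks, where nucleosome-free DNA is usual at active promoters, had the deepest trough of the 5 classes in both genotypes and overlapped between them. Central signal was 66.4%, 60.1%, 56.9% and 55.1% in wild-type mice 11, 12, 26 and 27, and 64.5%, 54.95%, 74.4% and 64.9% in Bmal1-/- mice 5, 8, 9 and 10. Bmal1-/- mouse 8 was the lowest of all 8 mice and wild-type mouse 11 was above 3 of the 4 Bmal1-/- mice. The difference of 5.04 points did not pass the test (59.7% ± 4.96 against 64.7% ± 7.95, SD, n = 4 per genotype, exact permutation p = 0.371). It was 1.81 without Bmal1-/- mouse 9 and 8.30 without mouse 8 (exact permutation p = 0.686 and 0.114).

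The smaller sets named as the top of gene body peaks had differences close to each other. They were 14.4 and 14.5 points in the top 400 and the top 25% of gene body peaks, and 14.4 and 15.1 points in the top 400 and the top 25% of intron peaks, against 12.7 points in all 1623 gene body peaks. Each of these sets gave exact permutation p = 0.0286 and adjusted p = 0.0444. The top intergenic sets were smaller and their mice more spread. The top 100 peaks within 10 kb of a gene differed by 12.8 points, and beyond 10 kb the top 200 and the top 25% differed by 13.4 and 13.8 points, each short of the threshold with exact permutation p = 0.0571. The top 25% within 10 kb passed, at 15.8 points (exact permutation p = 0.0286, adjusted p = 0.0444), and its mice are given at the end.

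The smaller TSS sets gave other values. The set named as the top 25% of TSS peaks had 58.01%, 58.1%, 52.9% and 51.7% in wild-type mice 11, 12, 26 and 27, and 67.1%, 59.2%, 71.5% and 63.6% in Bmal1-/- mice 5, 8, 9 and 10. The genotypes did not overlap, and the difference was 10.2 points (exact permutation p = 0.0286, adjusted p = 0.0444), falling to 6.39 with the centre within 250 bp (exact permutation p = 0.143). For the top 200 TSS peaks it was 8.16 points (exact permutation p = 0.0857) and for the other 383 it was 3.35 (exact permutation p = 0.571). The contrast between the top 200 and the other 383, 4.81 points, did not pass (exact permutation p = 0.114).

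Whether the genotype difference itself differed between classes was tested for all 10 pairs, and 0 passed, before or after adjustment. The intron minus TSS contrast came nearest, at 7.56 points (exact permutation p = 0.0571, adjusted p = 0.190). Per mouse, intron minus TSS signal ranged from 7.89 to 15.4 points in wild type and from 14.5 to 23.4 in Bmal1-/-. This contrast passed at exact p = 0.0286 with the centre within 50 bp (7.17 points), the flank beyond 750 bp (8.40), scaling to the whole window (7.62) or without Bmal1-/- mouse 9 (9.28).

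The genotype difference was largest at the middle of the window. Taken in zones of distance, a division made after the data were seen, signal over all peaks within 50 bp was 67%, 65.9%, 59.6% and 62.5% in wild-type mice 11, 12, 26 and 27, and 78.2%, 70.3%, 80.8% and 77.95% in Bmal1-/- mice 5, 8, 9 and 10. The genotypes did not overlap there, and the difference was 13.05 points (exact permutation p = 0.0286, and p = 0.0571 without wild-type mouse 11, 12, 26 or 27 at 11.7 to 14.1 points). It was 9.17 points at 50 to 150 bp (exact permutation p = 0.0571), 5.87 at 150 to 250 bp (p = 0.229), 3.49 at 250 to 500 bp (p = 0.171) and 0.0156 at 500 to 1000 bp (p = 0.971). Of 40 such tests, 5 zones in 8 sets (all peaks, the first and last deciles and the 5 classes), 11 had exact permutation p = 0.0286 and 0 passed adjustment (smallest adjusted p = 0.104). All 11 were zones within 150 bp of the middle: both in the first decile and in each class other than TSS peaks, and the innermost over all peaks.

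**Figure D3:**
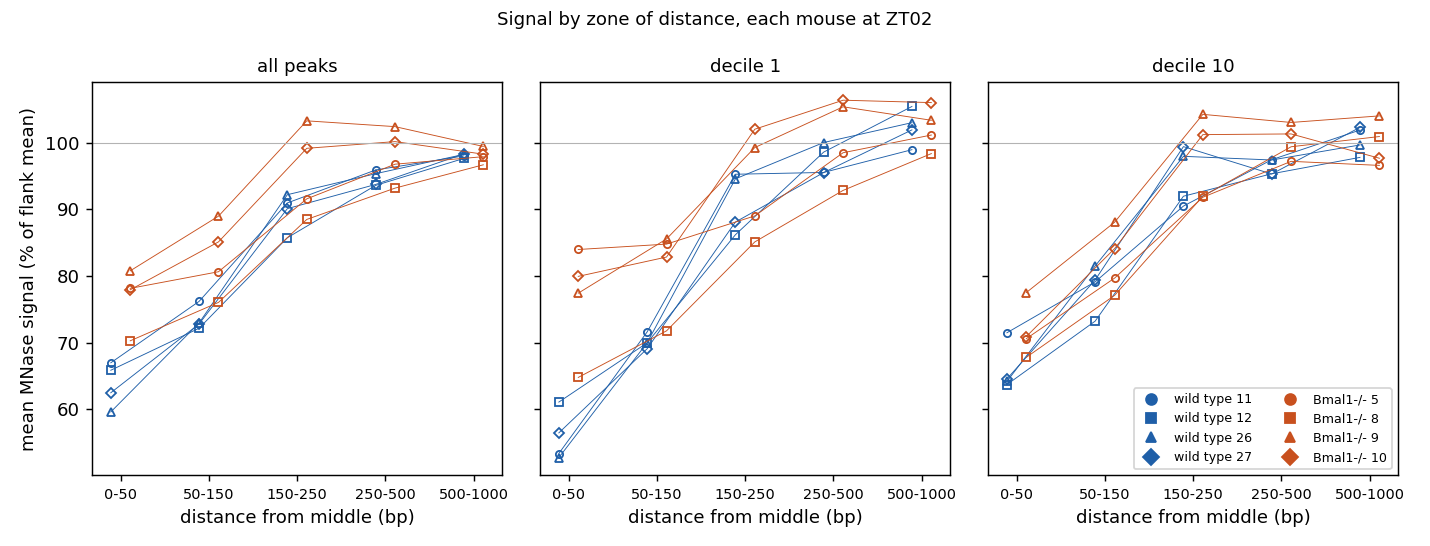
Mean MNase signal in percent of the flank mean (y axis) for each mouse at ZT02 in 5 zones of distance from the window middle in bp (x axis). Within 50 bp over all peaks the Bmal1-/- mice sit between 70.3% and 80.8%, all above the wild-type mice, and at 500 to 1000 bp the means of the genotypes differ by 0.0156 points.

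In the innermost zone the value differed between sets, which was not tested. Within 50 bp the difference was 20.6 points in the first decile (55.9% ± 3.81 against 76.6% ± 8.28, SD, n = 4 per genotype, exact permutation p = 0.0286) and 15.2 points at intron peaks (exact permutation p = 0.0286). It was 5.73 points in the last decile (exact permutation p = 0.114) and 7.98 at TSS peaks (exact permutation p = 0.0857). At 150 to 250 bp over all peaks, Bmal1-/- mice 9 and 10 reached 103.3% and 99.2% of the flank, above all 4 wild-type mice (85.8% to 92.2%), while Bmal1-/- mice 5 and 8 had 91.6% and 88.5%.

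The shape of the trough was measured per mouse. The lowest point of the all-peak profile was 64.6%, 64.8%, 57.6% and 60.9% in wild-type mice 11, 12, 26 and 27, and 77.2%, 69.3%, 80% and 76.7% in Bmal1-/- mice 5, 8, 9 and 10. Thus the bottom of the trough was higher in every Bmal1-/- mouse, by 13.8 points on average (exact permutation p = 0.0286, adjusted p = 0.143 over 10 shape tests). In the first decile it was 53.1% ± 4.65 in wild-type and 73.3% ± 8.61 in Bmal1-/- mice (SD, n = 4 per genotype), a difference of 20.2 points (exact permutation p = 0.0286, adjusted p = 0.143). The width below the level midway between the lowest point and the flank was 282.5 bp in both genotypes over all peaks, with SDs of 39.5 and 56.8 bp (n = 4 per genotype, exact permutation p = 1). The highest signal at 150 to 500 bp was 97.6% ± 1.64 in wild-type and 101.6% ± 5.11 in Bmal1-/- mice (SD, n = 4 per genotype, exact permutation p = 0.229). The position of the lowest point and the left-right balance of the centre did not pass (exact permutation p = 1 and 0.0857).

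By position, limma over 8400 positions (28 sets of 300) called none at adjusted p under 0.05, 0% higher and 0% lower. The smallest adjusted p by limma was 0.0575. At an unadjusted p under 0.05 871 positions (10.4%) were higher in Bmal1-/- and 2.13% were lower. Of those higher, 66.02% lay within 150 bp of the middle, a stretch with 10% of the positions, and of those lower 0% did. Neighbouring positions share fragments and sets share peaks, so these shares are not of independent positions. The scaling also sets the mean beyond 1000 bp to the same level in every library, which limits differences there. Over all peaks the unadjusted stretch ran from -135 to 85 bp, 230 bp wide, with the largest difference 14.2 ± 3.42 points (SE, limma, adjusted p = 0.0715) at -25 bp. In the first decile the largest difference was 22.9 ± 4.17 points (SE, limma, adjusted p = 0.0575), also at -25 bp. Over all peaks limma called 30 bp without a trend, 140 bp with all 47 libraries in the fit and 170 bp without Bmal1-/- mouse 8, all of it higher in Bmal1-/-.

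**Figure D4:**
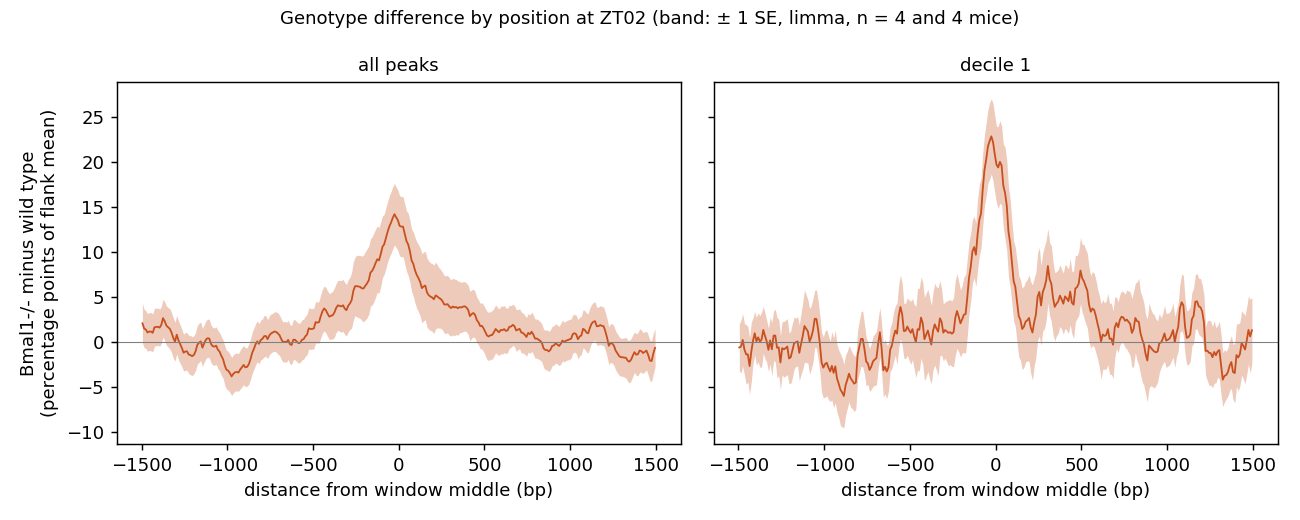
Bmal1-/- minus wild-type MNase signal in percentage points of the flank mean (y axis) by distance from the window middle in bp (x axis), with a band of ± 1 SE from limma. The difference over all peaks is largest at -25 bp, at 14.2 points, and in the first decile at 22.9 points.

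On the authors' own scale, without division by the flank, central signal over all peaks was 4.92, 4.89, 4.57 and 4.60 signal units in wild-type mice 11, 12, 26 and 27 and 5.74, 4.81, 5.68 and 5.59 in Bmal1-/- mice 5, 8, 9 and 10. Bmal1-/- mouse 8 lay inside the wild-type range and the other 3 above it. The difference of 0.707 units did not pass the test (4.74 ± 0.187 against 5.45 ± 0.435, SD, n = 4 per genotype, exact permutation p = 0.0857), and it was 0.923 without mouse 8 (exact permutation p = 0.0286). Other calls were lost on this scale too: the first decile (0.985 units), intron peaks (0.865), gene body peaks outside introns (0.860) and intergenic peaks within 10 kb (0.727) each gave exact permutation p = 0.0571. Intergenic peaks beyond 10 kb kept exact permutation p = 0.0286 (0.697 units), with 4.95 in the lowest Bmal1-/- mouse and 4.94 in the highest wild-type mouse. At TSS peaks the difference was 0.274 units (exact permutation p = 0.429). Flank signal was the same to the second decimal, 6.75 units in both genotypes, with SDs of 0.161 in wild type and 0.310 in Bmal1-/- (n = 4 per genotype, exact permutation p = 1). The flank ranged from 6.48 in Bmal1-/- mouse 8 to 7.19 in mouse 5, so the division by the flank mattered for single mice.

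The right flank of wild-type mouse 11 had a hump that enters this division. Over the 150 bp that begin 1300 bp to the right of intron peaks, its signal was 107.2% of the flank mean, against 97.8% to 99.8% in the other 7 mice. At gene body peaks outside introns wild-type mice 26 and 27 were raised there too (108.2% and 104.6%), beside mouse 11 (107.4%). Wild-type mouse 12 had 99.8% and the Bmal1-/- mice had 95.4% to 102.6%. With the left flank alone, intron peaks (12.4 points), the first decile (14.4) and gene body peaks outside introns (11.4) kept their call. Each gave exact permutation p = 0.0286. Gene body peaks outside introns had 13.1 points with both flanks. The losses over all peaks and at intergenic peaks are given above.

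The ZT02 difference was then set against those at ZT06, ZT14 and ZT18 over all 47 libraries. These were the next time, the opposite time and the time with the smallest genotype difference in earlier results of these data. The choice of ZT18 thus favoured a large contrast, and the p-values against ZT18 do not allow for it. At ZT06, 4 h later, wild-type mice had 65.3% ± 1.77 over all peaks and Bmal1-/- mice 77.3% ± 6.79. At ZT14 it was 70.3% ± 3.17 and 80.1% ± 5.39, and at ZT18 72.6% ± 1.76 and 76.2% ± 5.99 (SD, n = 4 mice in each of these groups). The wild-type mean at ZT02 was thus 5.02 points above that at ZT06 and level with that at ZT14 to within 0.01 points. The genotype difference at ZT02 was smaller than at ZT06 by 1.57 points, larger than at ZT14 by 0.641 and larger than at ZT18 by 6.89, none of which passed limma (adjusted p = 0.934, 0.934 and 0.661 over 28 sets and 3 times).

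**Figure D5:**
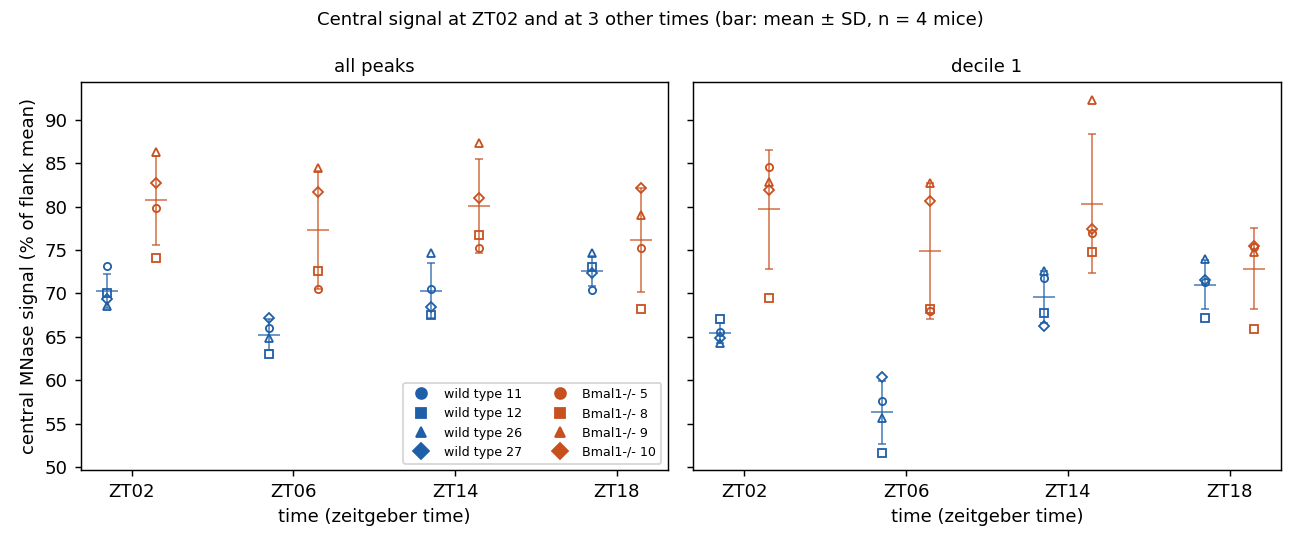
Central MNase signal in percent of the flank mean (y axis) for each mouse at ZT02, ZT06, ZT14 and ZT18 (x axis), with bars for the mean ± SD of 4 mice. In the first decile the genotypes differ by 14.3 points at ZT02 and by 1.86 points at ZT18.

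In the first decile the genotype difference was 14.3 points at ZT02, 18.6 at ZT06, 15.9 at ZT10, 10.8 at ZT14, 1.86 at ZT18 and 12.0 at ZT22, so ZT18 had the smallest value and ZT02 lay among the other times. Against ZT06 and ZT14 the ZT02 value was 4.35 points smaller and 3.48 points larger, and neither passed (limma adjusted p = 0.854 and 0.907). The difference at ZT02 exceeded that at ZT18 by 12.4 ± 5.13 points (SE, limma over all 47 libraries), which did not pass adjustment (limma adjusted p = 0.297). It passed with the centre taken within 50 bp (19.5 points, limma adjusted p = 0.0449). At ZT18 that decile had 71.02% ± 2.85 in wild-type and 72.9% ± 4.67 in Bmal1-/- mice (SD, n = 4 per genotype). With mice joined by the number in their labels, ZT02 minus ZT18 was -9.76 to -0.120 points in the wild-type numbers and 3.58 to 9.20 in the Bmal1-/- numbers (exact permutation p = 0.0286, adjusted p = 0.171 over 6 such tests). Mice with the same number were not shown to be paired, so these differences are of groups of mice and not within animals.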

How the data were processed

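Per the labels' protocols, fixed liver nuclei were digested with MNase and the DNA sequenced. CASAVA 1.7, Bowtie and the mm9 build are named in the submitters' processing notes. Not given in the sources used here are the Bowtie version, the scaling target, duplicate handling and the order behind the deciles. Deposited signal values are a scaled coverage that the authors averaged over the peaks of a set, at 10 bp steps. No value per peak or gene was analysed here, so no sequence is shown.

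Signal was divided by each library's flank mean. Means per mouse were compared by exact two-sided permutation tests (Python 3.11.15, numpy 2.4.6), and positions with limma 3.58.1 (R 4.3.3, eBayes with trend), on percent values with no pseudocount and no filter. Adjustment was by Benjamini-Hochberg at 0.05. The scripts were tested on simulated data. Fragment counts were read from the step of 1 fragment in the signal (100% of values whole within 0.1 of a step). By the labels a library is 1 mouse, and p-values reflect variation between mice. Sets, measures and tests were chosen with earlier results of these data known. The text gives the difference for every peak set, and peaks only by position, as the highest-listed overall and of each class.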

Additional observations from a re-analysis of the deposited data

Results flagged for a closer look

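Of 84 groups of 4 mice examined, 5 (5.95%) had a mouse far from the other 3, where chance gives about 5%. Bmal1-/- mouse 8 was the low mouse in 4 of them. Its central signal was 76.03% against 86.8% in the nearest mouse in the top 400 gene body peaks, 76.04% against 86.3% in the top 25% of gene body peaks and 69.04% against 82.1% in the top 400 peaks. On the authors' scale its all-peak central signal was 4.81 units against 5.59. These sets share peaks, so the 4 values are not independent. Mouse 8 had the deepest library of its genotype at ZT02 (relative depth 1.83), and the part of depth was not tested. The fifth was wild-type mouse 11, with 74.1% in all 1623 gene body peaks against 71.4% in the nearest wild-type mouse. This mouse had the shallowest wild-type library (1.07) and the hump in its right flank, and the part of either was not tested.

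The genotype difference in the first decile was 12.4 points larger at ZT02 than at ZT18. With mice joined by the number in their labels, every wild-type number was lower at ZT02 and every Bmal1-/- number higher (exact permutation p = 0.0286, adjusted p = 0.171). Mice with the same number were not shown to be paired. Bmal1-/- mouse 8 at ZT02 (69.5%) was below Bmal1-/- numbers 5, 9 and 10 at ZT18 (75.3%, 74.8% and 75.5%). ZT18 was picked for its small difference in earlier results of these data, and p does not allow for that choice.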

How the results depend on the processing

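The numbers of ZT02 mice are not shared between genotypes, so the replicate block applies to the comparisons between times only. Patterns over the sets were not shared by same-numbered mice (24 pairs of times, correlations from -0.701 to 0.805, median -0.0211, 6 over 0.1). These correlations leave out the overall level of a mouse, so they cannot show whether level goes with the number. Over all peaks Bmal1-/- numbers 9 and 10 were above 5 and 8 at ZT02, ZT06, ZT10, ZT14 and ZT18. At ZT06 they had 84.4% and 81.7% against 70.5% and 72.6%. At ZT22 number 5 was the highest (87.5%). A shared level was not tested. With the replicate block in limma the ZT18 contrast was 6.89 (limma adjusted p = 0.484) over all peaks and 12.4 (0.123) in the first decile, and no limma call changed. By differences between same-numbered mice, the first-decile contrast had exact permutation p = 0.0286 before adjustment and 0.171 after it. Of 809 values under an alternative, 661 kept their direction and their side of the threshold, 20 changed sign, 88 lost their call and 26 gained one. The other 14 were counts, widths or shares that moved by over 1.5 times or away from 0. Without 1 mouse, all-peak differences were 8.62 to 12.7, the count of sets 2 to 24, the slope -1.37 to -0.960, intron minus TSS 6.14 to 9.28 and the lowest all-peak signal 12.4 to 15.98 points. With 3 against 4 mice, assignments with other mice can give a larger difference, so groups that do not overlap can have an exact p of 0.0571. Without 1 mouse the position of the lowest signal differed by -15 to 15 bp over all peaks (first decile -21.7 to 48.3), authors'-scale central signal by 0.613 to 0.923 and flank signal by -0.144 to 0.0903 units, the 500 to 1000 bp zone by -0.438 to 0.479 and ZT02 minus ZT14 by -1.40 to 1.73.

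With the centre within 50 bp intron minus TSS was 7.17 and ZT02 minus ZT06 in the first decile 0.361 (-4.35 within 150 bp). Within 250 bp all peaks gave 8.63, the slope -0.772, gene body outside introns minus intron -0.245 and the intergenic pair (beyond minus within 10 kb) 0.302. With the flank beyond 750 bp intron minus TSS was 8.40 and gene body outside introns minus intron -0.594, and with the whole window 7.62 and -0.594. The left flank alone gave 10.3 over all peaks. Without 1 mouse gene body outside introns minus intron was -0.738 to 1.5 and the intergenic pair -1.07 to 0.456. Positions called higher by limma over all sets were 1.20% on the authors' log2 scale, 2.30% without trend (0.0238% lower), 2.81% with 47 libraries, 2.50% at 150 bp spacing and 0% to 5.56% without 1 mouse (0% to 0.0357% lower). All-peak widths were 30 bp without trend, 140 bp with 47 libraries and 0 to 170 bp without 1 mouse. The limma test of central signal gave 10.46 points with adjusted p = 0.00257, which pools overlapping sets. The causes of these changes were not tested.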

Other observations

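The hump in the right flank of wild-type mouse 11 stood at 104.8% of the flank mean over all peaks, in the 150 bp that begin 1300 bp from the middle, against 98.5% to 100.7% in the other 7 mice. It was 107.2% at intron peaks, and 115.1%, 111.98% and 111.6% in deciles 4, 6 and 7. It was absent in other sets: this mouse had 99.7%, 97.1%, 99.5% and 97.3% in deciles 3, 5, 8 and 9, 100.2% at TSS peaks and 98.5% at intergenic peaks within 10 kb. In decile 10 Bmal1-/- mice 9 and 10 were higher (110.97% and 110.3%) than wild-type mouse 11 (103.9%). At gene body peaks outside introns wild-type mouse 26 was higher (108.2%) than wild-type mouse 11 (107.4%). At that distance on the left the all-peak value of wild-type mouse 11 was 99.8%. Among libraries of wild-type number 11 at the other 5 times the all-peak value on the right was 99.7% to 103.1%.

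Among the small sets, the set named as the top 25% of intergenic peaks within 10 kb had central signal of 68.2%, 79.7%, 75.8% and 81.9% in wild-type mice 11, 12, 26 and 27. In Bmal1-/- mice 5, 8, 9 and 10 it was 96.2%, 84.3%, 90.3% and 98.1%. Relative to the flank mean the trough was thus nearly absent in 2 Bmal1-/- mice, and the difference was 15.8 points (exact permutation p = 0.0286, adjusted p = 0.0444). Without 1 mouse it was 13.1 to 18.5 points, with exact permutation p up to 0.0571. The flank of this set was uneven. In the 150 bp that begin at 1300 bp, the right side ranged from 80.5% (Bmal1-/- mouse 5) to 106.2% (wild-type mouse 11). The left side ranged from 87.9% (wild-type mouse 11) to 115.5% (Bmal1-/- mouse 5).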
